A study of Sus scrofa with 24 samples.

Results

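Spleens of healthy Meishan pigs collected 180 days after birth (180d) were compared with those collected 120 days after birth (120d). The 6 libraries of these 2 stages, 3 from each, were chosen by the age given in the sample labels, out of 24 libraries at 8 stages with 3 pigs per stage. Each library came from the spleen of a different pig of this Chinese breed, kept on 1 standard diet with no treatment, and the sex of the animals is not given in the sources used here. The stages are therefore compared between animals and not within them. Each of the 3000 circRNAs of the deposited table was compared, with the reads across its back-splice junction as the measurement.

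A circular RNA (circRNA) forms by back-splicing, in which a splice donor is linked to an acceptor that lies upstream of it, so that the product is a ring with no free ends. Rings of this kind resist exonucleases such as RNase R and outlast most linear transcripts, and their reads are recognised by the junction that a linear transcript of the gene does not hold. The spleen filters blood in its red pulp and mounts immune responses in its white pulp, where lymphocytes divide. In RNA of a mixed tissue, fewer cells of a type and less RNA per cell cannot be told apart.

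Library totals of the table were 37023, 57890 and 55129 back-splice reads at 180d, against 87867, 71092 and 86551 at 120d, where the order within a stage is that of pigs 1, 2 and 3. The totals of a table of 3000 circRNAs are not the depth of a library, so the clean reads that the study lists per library were taken as the depth. Their mean was 2.69% lower at 180d than at 120d. Libraries of other stages served only to estimate the spread and to place the 6 libraries among all 24. Of the cell type markers, 4 of 45 T and NK cell genes, 7 of 34 B and plasma cell genes and 5 of 34 macrophage, monocyte and granulocyte genes hosted a measured circRNA, against 0 of 7 pancreatic acinar genes and 0 of 6 fat cell genes. The last 2 lists are too short for this contrast to test the tissue label. The sources disagree on the libraries: the sample labels name RNeasy and TruSeq Stranded Total RNA kits with Ribo-Zero Gold, and the methods of the study name TRIZOL, Ribozero, RNase R and a NEBNext directional kit.

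The junctions of 10 circRNAs, the 5 with the smallest p in each direction among those with mean counts of 10 or more, show what a read had to span. Each is 30 bases of RefSeq Sscrofa11.1, 5′ to 3′ on the strand of the circRNA, with the last 15 bases before the junction in lower case and the first 15 bases after it in capitals. The first 5 had the higher and the last 5 the lower counts at 180d.
circRNA_13457 (within LOC102162338): aaaatcaagtaagagACCACATGAGACAAG
SCMH1 circRNA_32372: tgcaggcccccacagTTGTGATTCCAAAGA
WWOX circRNA_29582: ccaactcaggaatagTCACACGGAGGAGAA
ZFPM2 circRNA_25883: actgggatggaccagGGCCGCTAGAAGATG
RNF145 circRNA_18123: acatcaaatctccagGTCTGCTCCAAGAAG
CDK13 circRNA_20222: ttaagaaagataaagACGGTCTGCCAAATC
PUM2 circRNA_25322: agcagccacatatagGTTTGATCTGTGGAT
ERBIN circRNA_17835: gacagcttgatgaaaATGATACAAAGGATA
CYLD circRNA_29969: atgatatcatcccagGCATTTTGATTTGCT
ATF7IP2 circRNA_23534: aatacaacctgcaagGATATAAAAAATGGC

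The 3000 circRNAs together took a smaller share of the reads at 180d. The 180d libraries held 360, 532 and 514 back-splice reads per M clean reads, against 762, 634 and 864 in the 120d libraries. Every 180d library lay below every 120d library. The libraries averaged 469 ± 94.5 at 180d, against 754 ± 115 at 120d (SD, n = 3 pigs each), a ratio of 0.622, or 37.8% less. An exact permutation test (two-sided) gave p = 0.1, the smallest value that 3 pigs against 3 allow. Leaving out 1 library at a time moved the ratio between 0.577 and 0.694. The 120d libraries also stood above every one of the other 21 libraries, and the 18 libraries from 1d to 35d ran from 151 to 524.

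**Figure D1:**
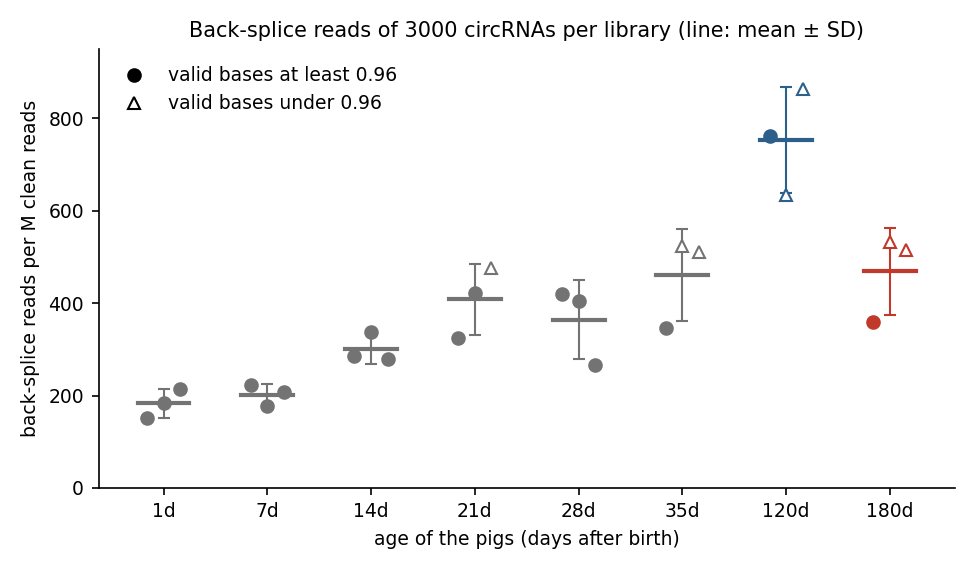
Back-splice reads of the 3000 circRNAs per M clean reads (vertical axis) in the 24 libraries by age (horizontal axis); points are pigs, lines and bars the mean ± SD of 3 pigs, and the point shape gives the share of valid bases after trimming. The 3 libraries of 180d lie between 360 and 532, within the range of the 21d to 35d libraries (265 to 524) or just above it, and the 3 libraries of 120d lie between 634 and 864.

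The libraries also differed in the share of valid bases left after trimming. It was at least 0.96 in pig 1 of each of the 2 stages and under 0.96 in pigs 2 and 3. Among the libraries of at least 0.96, the 180d library had 360 reads per M clean reads and the 120d library 762, a ratio of 0.473. Among those under 0.96, the 180d libraries had 532 and 514 and the 120d libraries 634 and 864, a ratio of 0.698. With 1 library per stage in the first class and 2 in the second, neither ratio can be judged against a spread between pigs. Libraries under 0.96 had the higher values at 180d, at 21d (477 against 325 and 422) and at 35d (524 and 511 against 347). At 120d the library of at least 0.96 lay between the others. Whether this class bears on the reads per clean read was not tested.

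Fewer of the 3000 circRNAs had reads at 180d. Their number was 2713, 2855 and 2856 at 180d, against 2975, 2950 and 2968 at 120d. With each library thinned to 37023 reads, the total of the smallest one, and counts of 1 set to 0, since the table holds none, it was 2703 ± 9.17 at 180d, against 2780 ± 9.29 at 120d (SD, n = 3). The groups did not overlap before or after thinning (exact permutation p = 0.1, the smallest possible). The 10 most abundant circRNAs of a library took 8.76% ± 0.354 of its back-splice reads at 180d, against 7.77% ± 0.172 at 120d, again with no overlap. Among them, circRNA_24032 alone had 703, 1205 and 1245 reads at 180d, against 927, 1048 and 741 in the larger 120d totals. With its reads taken out of the share of the 10, the 2 stages overlapped, so the difference did not hold for the others together.

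Per clean read the lower level ran through the whole table. Of the 3000 circRNAs, 2724 (90.8%) had a lower mean per clean read at 180d, and the median log2 fold change, 180d over 120d, was −0.72. In 1038 circRNAs (34.6%) every 180d library lay below every 120d library, and in 5 (0.167%) every 180d library lay above. The median was −0.79 to −0.67 in the 5 abundance classes of 600 circRNAs, from 5 to 39 reads over the 6 libraries in the lowest class to between 147 and 5869 in the highest. Over the 19 chromosomes it was −0.81 to −0.61. By exons in the ring it was −0.59 for 113 circRNAs of 1 exon, −0.69 for 1386 of 2 to 3 exons, −0.73 for 1065 of 4 to 6 exons and −0.91 for 280 of 7 or more exons. These medians are given as a description, since circRNAs of 1 library share its depth.

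**Figure D2:**
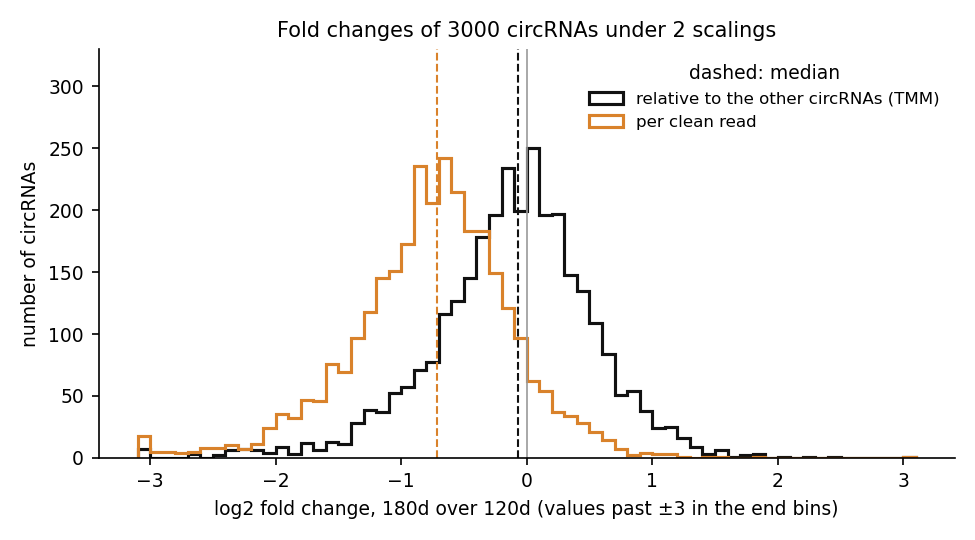
Number of circRNAs (vertical axis) by log2 fold change, 180d over 120d (horizontal axis, bins of 0.1), per clean read (orange) and relative to the other circRNAs (black, TMM scaling), with dashed medians. The orange curve is shifted to lower values (median −0.72) and the black one is centred near 0 (median −0.07).

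Relative to the other circRNAs, no single circRNA passed the test. TMM scaling (edgeR's trimmed mean of M values) sets the typical circRNA to no change, and the quasi-likelihood test of edgeR was applied in 1 fit over the 24 libraries (two-sided). With a call at an adjusted p under 0.05 together with a 2-fold or larger difference, 0 of 3000 were called higher (0%) and 0 lower (0%), and the smallest adjusted p was 0.103. At an unadjusted p under 0.05 there were 145 (4.83%), of which 40 were higher (1.33%) and 105 lower (3.5%) at 180d. DESeq2 also called 0, with 165 at an unadjusted p under 0.05. In 152 circRNAs (5.07%) every 180d library lay above every 120d library on the TMM scale, and in 299 (9.97%) below. None of the 6 other steps between neighbouring stages had a call in this fit either, with 94 to 319 circRNAs at an unadjusted p under 0.05.

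Per clean read, edgeR called 43 circRNAs lower at 180d (1.43%) and 0 higher (0%). At an unadjusted p under 0.05 it had 616 lower (20.5%) and 2 higher (0.0667%). The 43 came from 42 host genes, and 32 of them averaged 10 or more TMM-scaled counts. The number depended on single pigs: it was 3, 8 and 24 without 180d pig 1, 2 and 3, and 1 and 6 without 120d pig 1 and 3. It rose without 120d pig 2. It was 0 where pig 1 of both stages was left out, so that only libraries under 0.96 valid bases remained of these stages. It was 2 in the libraries of at least 0.96, where 1 library of 180d stood against 1 of 120d and the spread came from the other stages.

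The 5 circRNAs with the smallest p among the lower ones with mean TMM-scaled counts of 10 or more are given here by their values. For a TMM-scaled count, the reads of a circRNA were divided by its library's effective size and brought back to read numbers with the geometric mean of all 24 such sizes. CDK13 encodes a kinase of the RNA polymerase II tail that acts in transcription elongation. Its circRNA_20222 (exons 2 to 5, chr18:54393586-54404485, 1142 bases) had 42.7, 38.8 and 42.0 TMM-scaled counts at 180d, against 107, 64.4 and 78.5 at 120d. All 3 pigs of 180d were below all 3 of 120d, and the log2 fold change was −1.02 (SE 0.24, adjusted p of edgeR 0.103). Per clean read it was −1.70 and passed the test (adjusted p of edgeR 0.00884, and 0.00884 to 1.00 over 19 alternatives).

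PUM2 encodes a Pumilio protein, which binds the 3′ ends of mRNAs and represses them. Its circRNA_25322 (exons 2 to 9, chr3:117885521-117903927, 1100 bases) had 5.34, 5.75 and 3.75 TMM-scaled counts at 180d, against 22.1, 16.2 and 13.1 at 120d. ERBIN is a scaffold protein that binds the receptor ERBB2. Its circRNA_17835 (exons 21 to 24, chr16:44513270-44525240, 1997 bases) had 10.7, 6.47 and 10.5 counts at 180d, against 27.8, 17.4 and 21.3 at 120d. ATF7IP2, a paralogue of the chromatin protein ATF7IP, gave circRNA_23534 (exons 3 to 6, chr3:32569056-32577584, 1213 bases). It had 7.47, 12.2 and 8.25 counts at 180d, against 20.2, 20.9 and 22.8 at 120d. In each of the 3 the groups did not overlap, with log2 fold changes of −1.78 (SE 0.45), −1.28 (SE 0.38) and −1.16 (SE 0.34). The adjusted p of edgeR was 0.136 for PUM2 and 0.312 for ERBIN and ATF7IP2. Per clean read it was 0.0121 for PUM2 and ERBIN and 0.0175 for ATF7IP2, and over the alternatives it reached 1.00 in all 3.

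CYLD is a deubiquitinase that restrains NF-κB signalling. Its circRNA_29969 (exons 4 to 6, chr6:34107266-34112786, 1061 bases) had 4.27, 13.7 and 18.7 TMM-scaled counts at 180d, against 39.5, 31.3 and 21.3 at 120d. Pig 1 was the lowest of 180d and the highest of 120d, and the groups did not overlap. The log2 fold change was −1.27 (SE 0.37, adjusted p of edgeR 0.312) and ran from −3.21 to −0.69 over the alternatives, where the adjusted p was 0.0215 (per clean read) to 0.999.

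Among the higher ones with mean counts of 10 or more, the smallest p belonged to circRNA_13457 (chr14:54538637-54541433), which lies within the uncharacterised long noncoding RNA LOC102162338 and whose ends match no annotated exon ends. It had 70.4, 53.9 and 57.7 TMM-scaled counts at 180d, against 28.7, 16.8 and 34.4 at 120d. Its 3 libraries of 180d were also above all 18 libraries from 1d to 35d, which ran from 7.24 to 24.1. The log2 fold change was 1.17 (SE 0.30, adjusted p of edgeR 0.144, and 0.102 to 1.00 over the alternatives). Per clean read it was 0.46, with an adjusted p of 0.459.

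SCMH1 belongs to the Polycomb group of chromatin repressors. Its circRNA_32372 (exons 12 to 13, chr6:170137545-170143503, 360 bases) had 31.0, 17.2 and 35.2 counts at 180d, against 13.7, 5.80 and 4.36 at 120d. WWOX is an oxidoreductase with WW domains and a known tumour suppressor in humans. Its circRNA_29582 (exons 2 to 4, chr6:9860419-9864561, 302 bases) had 29.9, 28.0 and 43.5 counts at 180d, against 13.2, 12.2 and 16.5 at 120d. Groups did not overlap in either case, and for WWOX the 180d libraries were again above all 18 libraries of 1d to 35d (3.65 to 24.9). The log2 fold changes were 1.77 (SE 0.51) and 1.27 (SE 0.39), with adjusted p-values of edgeR of 0.312 and 0.329.

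ZFPM2, also called FOG2, is a cofactor of GATA transcription factors. Its circRNA_25883 (exons 1 to 2, chr4:31972148-31996226, 261 bases) had 22.4, 22.3 and 33.7 counts at 180d, against 10.4, 9.28 and 14.5 at 120d. RNF145 is a ubiquitin ligase of the endoplasmic reticulum. Its circRNA_18123 (exons 2 to 3, chr16:64257835-64266685, 312 bases) had 89.7, 106 and 92.2 counts at 180d, against 59.3, 65.5 and 45.0 at 120d. Groups did not overlap, with log2 fold changes of 1.19 (SE 0.39) and 0.76 (SE 0.26) and adjusted p-values of edgeR of 0.513 and 0.554. None of the 5 passed the test per clean read, where all had smaller positive log2 fold changes, from 0.13 for RNF145 to 1.11 for SCMH1.

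**Figure D3:**
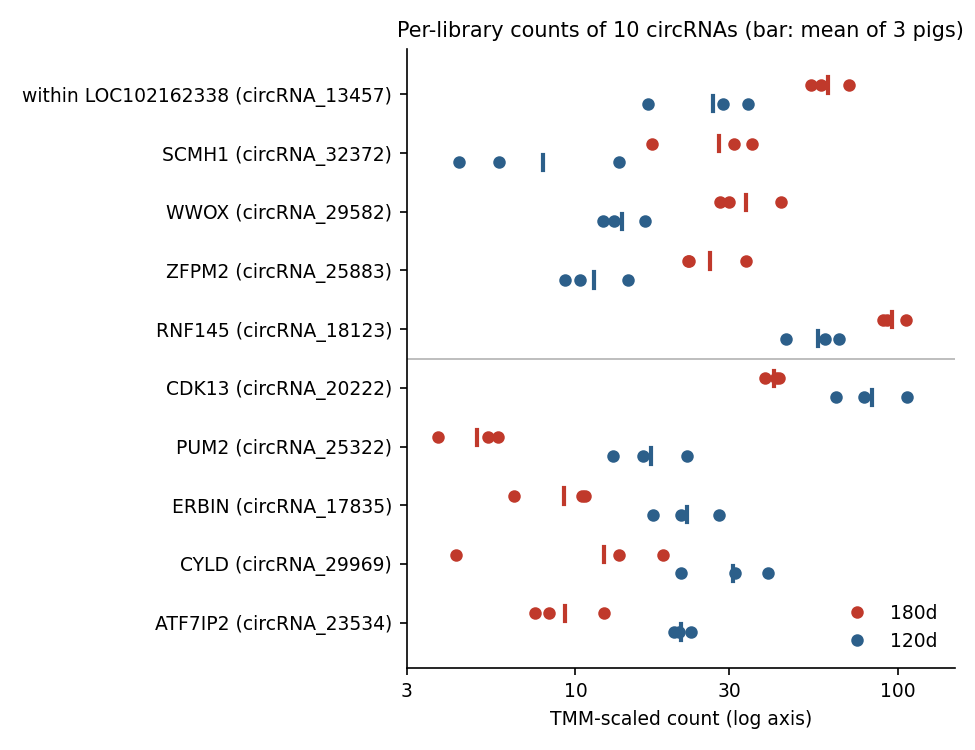
TMM-scaled counts (horizontal log axis) of the 10 circRNAs named by p, 5 in each direction with means of 10 or more, with a point per pig and a bar at the mean of 3, 180d in red above 120d in blue. In every row the 3 points of 180d lie on 1 side of the 3 points of 120d, and none of the 10 passed the test under this scaling.

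Few circRNAs placed the 180d pigs outside all the other ages. On the TMM scale 20 circRNAs (0.667%) were higher in each 180d library than in all other 21 libraries, and 14 (0.467%) were lower. The same counts for 120d were 6 (0.2%) and 0, and for each stage from 14d to 35d they were at most 2 and 0. The youngest stages had 9 and 12 at 1d and 24 and 13 at 7d. These counts are a description, since the stages share the libraries they are set against. Among the circRNAs named so far, circRNA_13457, WWOX circRNA_29582, ERBIN circRNA_17835 and ATF7IP2 circRNA_23534 were outside the other 21 libraries at 180d.

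Of the circRNAs with no reads in any 180d library, 3 are described here, named after their values were seen. The others were TTK circRNA_01161, with 6, 5 and 4 reads at 120d, and ALMS1 circRNA_24176, given further below. KCTD3 circRNA_04508 (exons 4 to 17, chr10:5761746-5812467) had 0 reads in each of the 3 libraries at 180d, against 17, 7 and 11 at 120d. EZH2 circRNA_38087 (exons 2 to 4, chr9:109411982-109425231) had 0 in each, against 8, 8 and 6. Its circRNA_38097 (exons 4 to 8, chr9:109425115-109431724) had 0 in each, against 8, 5 and 5. The table holds no count of 1, and whether counts of 1 were set to 0 is not given in the sources used here. If they were, 7 counts over the 3 libraries of 180d is the limit that zeros allow (95%, counting error only), and this wider limit was taken. Scaled by effective size, the 120d reads were 3.10-fold this floor for KCTD3 circRNA_04508, 1.95-fold for EZH2 circRNA_38087 and 1.59-fold for EZH2 circRNA_38097. These values take the 120d reads as exact and leave out the spread between pigs, so they are not lower limits of a fold change. None of the 3 circRNAs passed the test under TMM (adjusted p of edgeR 0.103, 0.275 and 0.540), and the first 2 did per clean read (0.0121 and 0.0277). All 3 also had 0 in at least 1 of the 18 libraries from 1d to 35d.

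A pair of further circRNAs, also named after their values were seen, had few reads at 180d. ZRANB1 is a deubiquitinase, and its circRNA_14994 is a ring of the single exon 2 (chr14:134281823-134282673, 851 bases). It had 0, 2.16 and 3.0 TMM-scaled counts at 180d, against 8.95, 9.28 and 13.6 at 120d. No 180d pig reached a 120d pig, and the log2 fold change was −2.42 (SE 0.56, adjusted p of edgeR 0.103). It was the 1 circRNA called after thinning (log2 fold change −3.73, adjusted p of edgeR 0.0142, and 0.00884 to 1.00 over the alternatives). That call rests on a single random draw and on 0, 3 and 4 reads at 180d before thinning. IGF2BP3, an mRNA-binding protein of fetal tissues and tumours, gave circRNA_37799 (exons 6 to 10, chr9:92135892-92147867). It had 0, 3.59 and 1.5 counts at 180d, against 8.95, 15.1 and 5.81 at 120d, and at least 8.73 in each of the 18 younger libraries. Its adjusted p of edgeR was 0.136.

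The 10 most abundant circRNAs did not pass the test. The highest mean belonged to circRNA_24032 (chr3:57235342-57272274), whose ends match no exon pair and which lies within LOC100736878, annotated as a V segment of an antigen receptor. It had 750, 866 and 934 TMM-scaled counts at 180d, against 436, 608 and 359 at 120d. All 180d pigs were above all 120d pigs, but the log2 fold change of 0.86 had an SE of 0.70 (adjusted p of edgeR 0.998), and libraries from 1d to 35d ran from 11.5 to 1231. SLTM circRNA_01598 followed with 546, 630 and 541 counts at 180d, against 438, 439 and 553 at 120d, which overlapped. The other 8 of the 10 most abundant came from PHF21A, the receptor gene LOC100516957, TLK1, the long noncoding RNA LOC110255584, PRKAR1A, PICALM, PAN3 and CEP63. Their log2 fold changes ran from −0.39 for LOC110255584 circRNA_05253 to 0.07 for PAN3 circRNA_06114, and none passed the test (adjusted p of edgeR 0.984 or more).

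circRNA_21767 is the circRNA that the study took to its laboratory tests. It is a ring of exons 11 to 15 of PAPD4 (chr2:88358554-88372391), a poly(A) polymerase gene. It had 25.6, 22.3 and 20.2 TMM-scaled counts at 180d, against 10.8, 11.6 and 17.9 at 120d. Groups were again apart, but the log2 fold change of 0.74 had an SE of 0.43 and an adjusted p of 0.998 (edgeR). Per clean read it was 0.05.

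Summed per host gene, the counts again gave no call under TMM. The 2848 circRNAs whose ends matched exon ends of 1 gene came from 1674 host genes. Of these, 0 were called higher (0%) and 0 lower (0%), with 113 (6.75%) at an unadjusted p under 0.05, 32 higher (1.91%) and 81 lower (4.84%). DESeq2 also called 0, with 117 at an unadjusted p under 0.05. In 94 host genes (5.62%) every 180d library lay above every 120d library, and in 169 (10.1%) below. Per clean read, edgeR called 88 host genes lower (5.26%) and 0 higher (0%), and 459 (27.4%) were lower at an unadjusted p under 0.05. The 88 became 4 and 58 without 180d pig 1 and pig 2, 10 and 9 without 120d pig 1 and pig 3, 7 in the libraries of at least 0.96 valid bases (1 library per stage) and 1 in those under 0.96. Leaving out a pig could also raise the 88. In 15 host genes (0.896%) the 180d libraries were above all other 21 libraries on the TMM scale, and in 17 (1.02%) below.

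CDK13 had the smallest p of the host genes. Its 4 circRNAs summed to 53.4, 48.2 and 50.2 TMM-scaled counts at 180d, against 125, 81.2 and 98.3 at 120d. The groups did not overlap, and the log2 fold change was −1.01 (SE 0.23, adjusted p of edgeR 0.0837). Without 120d pig 2 it was −1.15 and passed the test (adjusted p of edgeR 0.0295, and 0.00342 to 0.871 over the alternatives). Its circRNAs share ends: circRNA_20219 (exons 2 to 7) begins with the same exon as circRNA_20222, and circRNA_20221 (exons 3 to 5) ends with the same exon, as the junctions show beside that of circRNA_20222 above.
CDK13 circRNA_20219: tagctcagaagaaagACGGTCTGCCAAATC
CDK13 circRNA_20221: ttaagaaagataaagCTTACGGGGAAATAT
All 4 had a negative log2 fold change, −1.22 for circRNA_20219, −0.72 for circRNA_20221, −0.68 for circRNA_20215 and the value given above for circRNA_20222, and over the alternatives circRNA_20221 and circRNA_20215 reached 0.13 and 0.23.

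EZH2 is the methyltransferase of Polycomb repressive complex 2 and is known for its level in dividing lymphocytes. Its 5 circRNAs summed to 14.9, 20.1 and 12.7 TMM-scaled counts at 180d, against 30.1, 36.0 and 29.1 at 120d. All 3 pigs of 180d were below the other 21 pigs, since the 18 of 1d to 35d ran from 24.03 to 80.2. From 1d to 180d, in the order of age, the 8 stage means were 54.0, 76.6, 49.0, 56.1, 35.8, 34.0, 31.7 and 15.9. The log2 fold change was −0.97 (SE 0.28, adjusted p of edgeR 0.233, and 0.00866 per clean read). Of its circRNAs, circRNA_38086, circRNA_38087 and circRNA_38090 begin with exon 2 and end with exons 3, 4 and 8, and their junctions share the bases in capitals. Of the 5, circRNA_38099 (exons 9 to 10) had a positive log2 fold change of 0.10 with overlapping groups, and it ran from −0.48 to 0.71 over the alternatives.
EZH2 circRNA_38086: cgcgggaccagggagAATAATCATGGGCCA
EZH2 circRNA_38087: cagcagaatttcatgAATAATCATGGGCCA
EZH2 circRNA_38090: actgcttcctacatcAATAATCATGGGCCA

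MCM6 is a subunit of the helicase that opens DNA for replication. Its 3 circRNAs summed to 2.13, 3.59 and 9.75 counts at 180d, against 14.1, 16.8 and 16.95 at 120d. All 180d pigs were below all 120d pigs, and the log2 fold change was −1.54 (SE 0.42, adjusted p of edgeR 0.190). After thinning, a single random draw with counts of 1 set to 0, it was −2.52 and passed the test (adjusted p of edgeR 0.0292, and 0.00894 to 0.871 over the alternatives). ATF7IP2 (9.61, 14.4 and 8.25 at 180d, against 27.3, 26.1 and 26.6 at 120d) and SLC37A3, a solute carrier (6.40, 8.62 and 10.5 at 180d, against 30.6, 17.98 and 14.5 at 120d), were the other 2 of the 5 lower host genes with mean counts of 10 or more. Both passed the test per clean read (adjusted p of edgeR 0.00342 and 0.00954) and neither under TMM (0.102 and 0.233).

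The 5 higher host genes with the smallest p and mean counts of 10 or more were SCMH1, DISC1, WWOX, ZFPM2 and RNF145, of which all but DISC1 hosted the 1 circRNA described above. DISC1 is a scaffold protein of the centrosome known from neurodevelopment in humans. Its circRNA_13615 (exons 7 to 9) and circRNA_13619 (exons 5 to 6) summed to 69.4, 67.6 and 69.0 counts at 180d, against 41.9, 37.1 and 31.5 at 120d. These were also above the 18 libraries of 1d to 35d (8.80 to 43.2), and the log2 fold change was 0.90 (SE 0.27, adjusted p of edgeR 0.233).

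A fit on the 6 libraries alone, in place of 24, gave 6 host genes at an adjusted p under 0.05. They were CDK13 (lower) and DISC1, SCMH1, WWOX, DDX58 and EPSTI1 (higher), with adjusted p-values of edgeR of 0.0432 for 5 of them and 0.0474 for SCMH1. These were the smallest adjusted p-values over the alternatives except for CDK13, and the largest were 0.997 for EPSTI1, 0.871 for CDK13 and 1.00 for the other 4. Of these, SCMH1, WWOX, DDX58 and EPSTI1 were past 2-fold. DDX58, also called RIG-I, is a sensor of viral RNA. Its circRNA_05171 had 7.47, 25.2 and 15 TMM-scaled counts at 180d, against 3.77, 4.06 and 3.87 at 120d. EPSTI1 is an interferon-induced gene, and its 2 circRNAs summed to 67.2, 91.3 and 49.5 at 180d, against 15.5, 33.6 and 32.0 at 120d. The groups did not overlap in either gene, and neither passed the test in the fit over 24 libraries (adjusted p of edgeR 0.417 and 0.437).

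Of the gene lists, the cell cycle list had the most negative median among those with at least 3 measured host genes. Like the other lists, it was chosen with earlier results of these data known, so its direction is no independent evidence. None of its 24 measured genes (of 66) passed the test under TMM, 21 had a negative and 3 a positive log2 fold change, and their median was −0.57, against −0.07 over all 1674 host genes. In 7 of the 24 every 180d library was below every 120d library, against 10.1% of all host genes, and in 0 above. Per clean read 7 of the 24 passed the test as lower (29.2%), against 96 of all 1674 (5.73%), with no fold change minimum. Among host genes with a mean of at least 10 counts, the list's median differed from that of all host genes by −0.16, in place of −0.50. The summed count of the list was 390, 404 and 426 at 180d, against 499, 527 and 563 at 120d, with no overlap, and 556 to 1052 in the 18 younger libraries.

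Among the members, MCM6 has been described, and 2 more had the smallest p. TTK, a kinase of the spindle checkpoint, had 3.20, 2.16 and 2.25 counts at 180d, against 8.004, 7.54 and 9.69 at 120d. ATAD2, a bromodomain protein of chromatin with 8 circRNAs in the table, had 69.4, 66.8 and 64.5 at 180d, against 91.8, 89.9 and 102 at 120d. In both, the 180d pigs were below the other 21 pigs. BUB1B, which also acts in the spindle checkpoint, had 4.27, 14.4 and 12 counts at 180d, against 15.5, 24.9 and 29.1 at 120d. Its 5 circRNAs all had negative log2 fold changes, from −1.17 to −0.99. CENPE, a motor of the kinetochore, had 3.20, 5.03 and 0 counts at 180d, against 5.18, 11.6 and 8.23 at 120d. RB1, which restrains entry into the cycle, had 23.5, 20.8 and 16.5 counts at 180d, against 15.5, 19.7 and 18.9 at 120d, which overlapped. Its log2 fold change was 0.16, and DIAPH3 (0.20) and ORC4 (0.05) were also positive with overlapping groups. Per clean read RB1, DIAPH3 and ORC4 were at −0.51, −0.45 and −0.64.

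**Figure D4:**
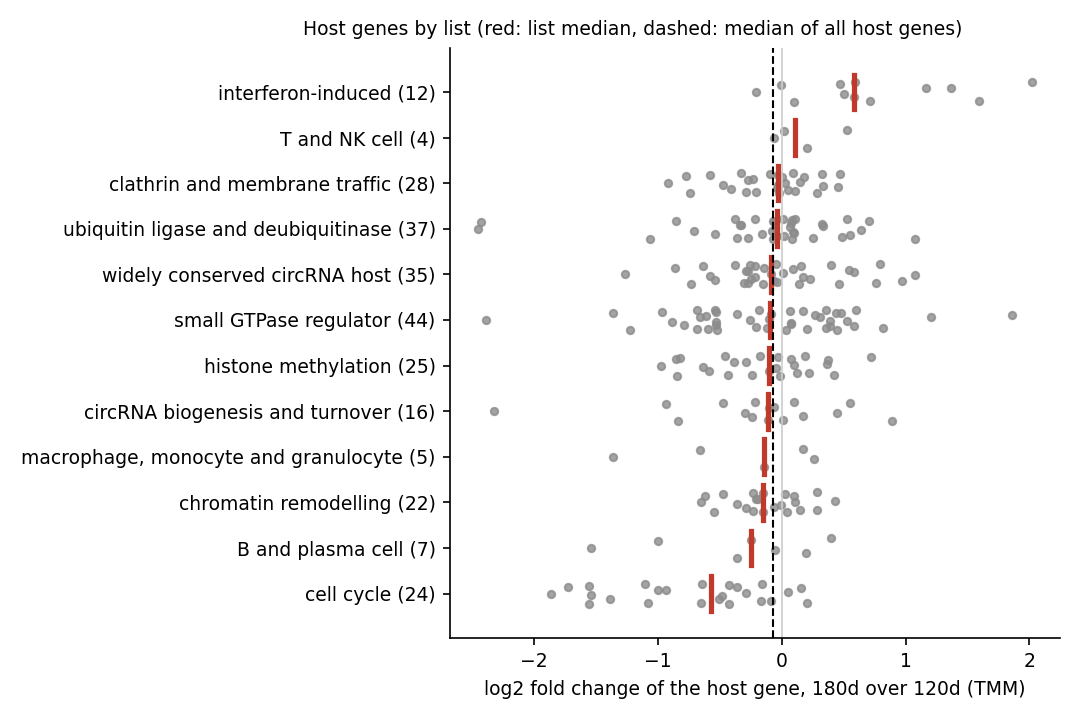
Log2 fold change, 180d over 120d (horizontal axis, TMM), of host genes in the lists with at least 3 measured members (number in brackets), with a point per gene, the list median in red and the median of all 1674 host genes dashed. The cell cycle list has the most negative median (−0.57) and the interferon-induced list, written after values were seen, the most positive (0.59). All lists were chosen with earlier results of these data known.

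The interferon-induced list was written after DDX58 and EPSTI1 had been seen, so its direction is no independent evidence. Of 56 genes 12 were measured, none passed the test under TMM, 10 had positive log2 fold changes, and the median was 0.59. In 6 of the 12 every 180d library was above every 120d library, against 5.62% of all host genes. Besides DDX58 and EPSTI1 these were IRF9 and STAT2, parts of the factor that interferon activates, and PARP12 and PARP14. IRF9 had 7.47, 4.31 and 5.999 counts at 180d, against 1.41, 1.74 and 2.42 at 120d, and STAT2 had 7.47, 10.8 and 11.2 at 180d, against 2.82, 2.90 and 7.27 at 120d. The summed count was 245, 406 and 262 at 180d, against 171, 187 and 241 at 120d. The lowest 180d pig was close to the highest 120d pig, and the 3 libraries of 28d spanned 162 to 381.

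**Figure D5:**
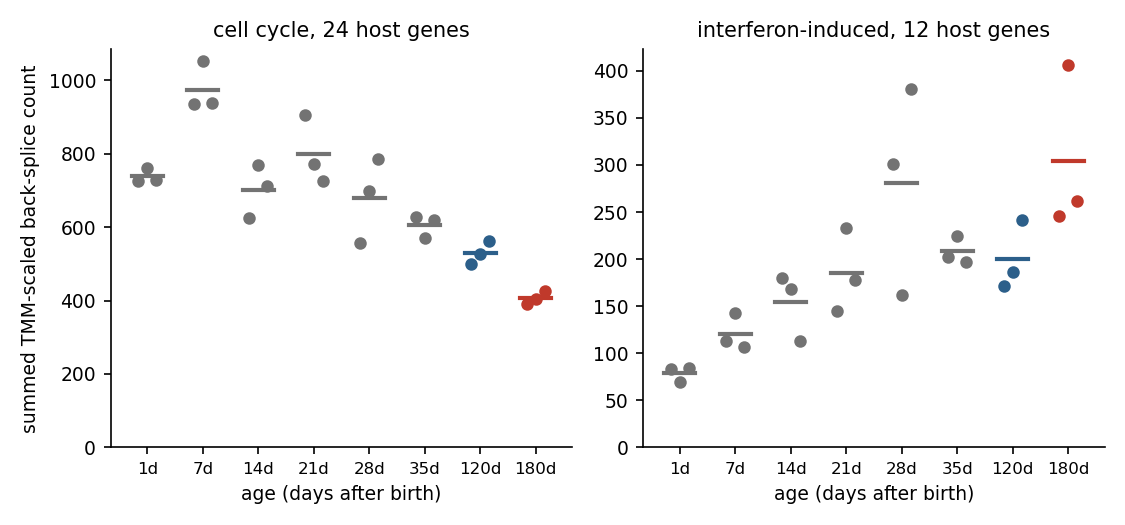
Summed TMM-scaled back-splice counts (vertical axis) of the cell cycle list and the interferon-induced list in the 24 libraries by age (horizontal axis), with a point per pig and a line at the mean of 3. The cell cycle sum is lowest at 180d (390 to 426), below 120d (499 to 563), and the interferon-induced sum at 180d (245 to 406) lies above 120d (171 to 241) in each pig, while the 28d pigs span 162 to 381.

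Lists of spleen cell types had few measured members and no test passed under TMM. The medians were 0.11 for T and NK cells (4 genes), −0.25 for B and plasma cells (7) and −0.14 for macrophages, monocytes and granulocytes (5). Of the T and NK cell genes, the surface receptor CD96 had 34.2, 48.2 and 45.7 counts at 180d, against 48.0, 44.1 and 42.1 at 120d. LEF1, a transcription factor of T cells, and ARHGAP15, a small GTPase regulator, overlapped as well. Of the B cell genes, AFF3, a nuclear protein of lymphoid cells, had 11.7, 21.6 and 9.75 counts at 180d, against 29.2, 29.0 and 29.5 at 120d. BCL11A, a transcription factor of B cell development, had 0, 1.44 and 1.5 at 180d, against 3.30, 1.74 and 4.84 at 120d. Both were without overlap, and FCHSD2 overlapped. Among the 7 B and plasma cell genes, 2 were lower without overlap, against 10.1% of all host genes. Of the myeloid genes, the protease gene CTSS had 47.0, 82.7 and 57.0 counts at 180d, against 46.1, 50.5 and 70.2 at 120d, and ELMO1 and DOCK2 had under 8 counts in every library of the 2 stages. Lists with 1 or 2 measured genes had medians of −0.50 (erythroid, 2 of 34), −0.58 (stromal, smooth muscle and endothelial, 2 of 46), −1.03 (fetal growth and fetal liver, 2 of 15) and −0.97 (germinal centre, EZH2 alone of 18), and no megakaryocyte and platelet gene of 19 was measured.

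Genes of chromatin, ubiquitin and splicing had medians near that of all host genes. They were −0.15 for chromatin remodelling (22 genes), −0.10 for histone methylation (25), −0.04 for ubiquitin ligases and deubiquitinases (37) and −0.11 for circRNA biogenesis and turnover (16). The histone methylation list holds EZH2, described above, and its relative EZH1, with 14.9, 25.9 and 10.5 counts at 180d, against 30.1, 24.4 and 39.2 at 120d, which overlapped. SETD3, an actin histidine methyltransferase, had 40.6, 36.7 and 52.5 at 180d, against 88.04, 64.4 and 49.9 at 120d. In the chromatin remodelling list, CHD9 had 55.5, 39.5 and 63.0 at 180d, against 71.6, 81.2 and 66.4 at 120d, with no overlap, and SRCAP and CHD1 were also without overlap. Of its 22 genes, 4 were lower and 0 higher without overlap, against 10.1% and 5.62% of all host genes. Of the ubiquitin genes, CYLD with its 2 circRNAs had 11.7, 17.97 and 22.5 counts at 180d, against 45.2, 36.0 and 30.5 at 120d. BTBD7 had 0, 2.16 and 0 at 180d, against 4.24, 6.38 and 4.36 at 120d. ZRANB1 has been described, and in all 3 the groups were apart. Of the 37 ubiquitin genes, 4 were lower and 2 higher without overlap, shares near those of all host genes (10.1% and 5.62%). QKI, an RNA-binding protein that promotes back-splicing, had 14.9, 15.8 and 24 counts at 180d, against 12.7, 7.54 and 9.20 at 120d, with no overlap and an adjusted p of edgeR of 0.879.

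The remaining lists of genes for regulators and transport also had medians close to that of all host genes. The medians were −0.09 for small GTPase regulators (44 genes), −0.03 for clathrin and membrane traffic (28) and −0.08 for widely conserved circRNA hosts (35). PICALM, a clathrin adaptor with 10 circRNAs in the table, had 480, 445 and 496 counts at 180d, against 602, 553 and 575 at 120d. The 180d pigs were below the other 21 pigs, and the log2 fold change was −0.28 (SE 0.14, adjusted p of edgeR 0.718). MYO9A, an unconventional myosin, had 99.3, 84.8 and 72.0 counts at 180d, against 50.4, 56.3 and 68.3 at 120d. Its 180d pigs were above the other 21 pigs under TMM, with a log2 fold change of 0.54 that turned to −0.15 per clean read. ARHGAP5, TBC1D22A and DENND4A had the smallest p of the GTPase regulators, with log2 fold changes of −1.23, −0.79 and −0.88 and all 180d pigs below all 120d pigs. Of the 44 regulators, 8 were lower and 4 higher without overlap, against 10.1% and 5.62% of all host genes. In the sorting nexin SNX27 the counts were 50.2, 42.4 and 39.7 at 180d, against 75.3, 65.5 and 55.2 at 120d, and SNX9 overlapped. TULP4 had 9.61, 6.47 and 5.999 counts at 180d, against 15.5, 15.1 and 21.8 at 120d, with no overlap.

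Several circRNAs of a gene can be set side by side. Among 63 host genes with 5 or more circRNAs, 43 had all of them lower at 180d per clean read, where 90.8% of all circRNAs were lower. All 10 were lower in PICALM, in ERBIN, in the centrosomal gene CEP350 and in PRPSAP2, and 11 of 12 in the co-repressor NCOR1 and 10 of 11 in SMARCC1, a subunit of a chromatin remodeller. Within a host gene, the share of a circRNA did not pass the test in any of 1788 circRNAs (0%, edgeR), with 25 at an unadjusted p under 0.05 (1.4%).

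Some of the smallest p-values of a share came from circRNAs with few reads. In ALMS1, a centrosomal gene, circRNA_24176 (exons 12 to 15) had 0 reads in each pig of 180d, against 4, 4 and 6 at 120d, and circRNA_24166 (exons 18 to 22) had 0, 3 and 3 at 180d, against 0 in each pig of 120d. SMG1 circRNA_23363, of a kinase of nonsense-mediated decay, and BRWD1 circRNA_12280 were also among the smallest p-values of a share, and all 4 had an adjusted p of 1.00 in edgeR.

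The libraries were also compared in pairs. Pearson correlations of log2 CPM over the 3000 circRNAs were 0.761 to 0.788 within 180d, 0.832 to 0.845 within 120d and 0.762 to 0.809 between the stages. After thinning to equal totals they were 0.733 to 0.748 within 180d, 0.741 to 0.759 within 120d and 0.723 to 0.736 between the stages. The values are a description across circRNAs of 3, 3 and 9 pairs, which share abundance and depth.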

How the data were processed

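Reads came from an Illumina HiSeq instrument. Per the labels, FastQC, cutadapt and TopHat2 were used, and the methods of the study name BWA for alignment to Sscrofa11.1 and CIRI2 for the detection of circRNAs. The deposited counts are whole numbers of back-splice reads per circRNA and library, not normalized, with no count of 1, and the rule that chose the 3000 circRNAs is not given in the sources used here. Host genes and junctions were read from RefSeq Sscrofa11.1: both ends had to lie within 1 base of exon ends of 1 gene. Counts were tested with edgeR 4.0.16 (TMM, robust glmQLFit, glmQLFTest, no filter) in R 4.3.3, in 1 fit over 24 libraries with a coefficient per stage. Tests were two-sided, with Benjamini-Hochberg adjustment over every circRNA or host gene. The biological coefficient of variation was 0.300. Shares within host genes used diffSpliceDGE. The replicates are separate pigs, and replicate numbers did not pair the samples. Alternatives included DESeq2 1.42.0, clean reads as depth, filters, thinning and leaving out each pig. Tests were checked on simulated data, drawn once. The circRNA test called 9 of 66, 30 of 67 and 51 of 67 circRNAs with log2 changes of 1, 2 and 3 in either direction. The host gene test called 18 of 66, 47 of 67 and 59 of 67. The share test called 12 of 100 and 41 of 100 at log2 changes of 2 and 3. With no change drawn, 0 of 3000 circRNAs had an adjusted p under 0.05 in edgeR, and 2.7% an unadjusted one. Real changes could therefore be missed.

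Since fewer than 5 circRNAs or host genes in a direction passed both thresholds, those of the smallest p were named, up to 5, if their TMM-scaled counts averaged 10 or more. For each list the 3 smallest p-values were named, for shares the 5 smallest, and for abundance the 10 highest means; 2 genes these rules chose are not reported here. The circRNAs with zeros at 180d, ZRANB1 circRNA_14994, IGF2BP3, BUB1B, CENPE, RB1, DIAPH3 and ORC4 were chosen after their values were seen. So were the interferon-induced genes and the genes with many circRNAs. The members and lists were chosen with earlier results of these data known.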

Additional observations from a re-analysis of the deposited data

How the results depend on the processing

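With 1 choice changed at a time, the count of called circRNAs under TMM stayed at 0 except per clean read (43, all lower) and after thinning (1, lower). That of host genes was 88 per clean read, all lower, 4 with only the 6 libraries, all higher, 2 after thinning, both lower, and 0 to 1 leaving out 1 pig, where KCTD3 was lower without 180d pig 1 and CDK13 without 120d pig 2. The share test called 0 to 1 circRNAs leaving out 1 pig. Per clean read, the 43 circRNAs became 65 with the class of valid bases as a factor, 2 in libraries of at least 0.96 (1 per stage, so that the spread came from other stages), 0 in those under 0.96, 67 among those averaging 10 counts or more, 65 with filterByExpr, 113 with DESeq2 and 1 to 60 leaving out 1 pig. The 88 host genes became 7 and 1 in the 2 classes and 4 to 119 leaving out 1 pig. Fewer libraries enter the fits by class and those that leave out a pig, and beyond that the cause was not tested. Over all circRNAs the median log2 fold change was −0.07, and 0.016 with DESeq2 size factors and with the DESeq2 test, 0.022 after thinning, −0.0014 among circRNAs averaging 10 counts or more, −0.17 in libraries of at least 0.96 valid bases and −0.72 per clean read.

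Among 42 named host genes checked in this way, which leave out RB1, DIAPH3 and ORC4, 9 that had not passed the test changed sign. Per clean read they were LEF1 (−0.13), ARHGAP15 (−0.37), FCHSD2 (−0.26), CTSS (−0.48), SNX9 (−0.17) and MYO9A (−0.15). In libraries of at least 0.96 valid bases they were LEF1 (−0.11), ARHGAP15 (−0.30), FCHSD2 (−0.029), ELMO1 (1.08), CTSS (−0.018) and SNX9 (−0.28). In libraries under 0.96 they were CD96 (0.12) and DOCK2 (0.038). CD96 was at 0.025 with DESeq2 size factors and at 0.016 with the DESeq2 test. Leaving out 1 pig, CD96 ran from −0.15 to 0.069 (without 180d pig 1), DOCK2 from −1.05 to 0.20 (without 120d pig 1) and CTSS from −0.091 (without 180d pig 2) to 0.38.

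Replicate numbers were checked for pairing: same-numbered libraries deviated from their stage means with r of 0.03, −0.03 and −0.03. These values gave no sign of pairing. The number did go with the class of valid bases: at 120d and at 180d, pig 1 alone was at least 0.96. Whether same-numbered libraries were prepared together was not tested. With a replicate block 0 circRNAs and 0 host genes were called under TMM, 0 shares, and 47 circRNAs and 96 host genes per clean read, with a median log2 fold change of −0.08. Most circRNAs rest on few reads, 3 pigs per stage cannot reach an exact p under 0.1, and clean reads as depth assume that the libraries were made alike.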
